A study of Mus musculus with 5 samples.

Results

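The RNA of 9 cytoskeletal genes, read by 10 probes, was followed in the mouse cerebellum at 5 ages. They belong to the neurofilament genes Nefm and Nefh, the tubulin genes Tuba3b, Tubb5, Tuba4a, Tubb4a and Tubg2, the microtubule plus-end gene Mapre1 (2 probes) and the actin gene Actb. They are all probes of the deposited table whose single gene symbol is one of these 9. The table holds 897 probes, and the 787 of them that carry 1 symbol name 773 genes. The genes were chosen from their measured profiles over the same 5 ages, so their values are given as a description and no test is run on them. Total RNA of whole cerebellum was hybridised to arrays at embryonic day 18, written E18, and on days 7, 14, 21 and 56 after birth, written P7 to P56. Each age has 1 column, the mean signal of 2 array experiments per the labels, so there is no spread between samples and no p-value. No treatment or genetic change is named for any age, and the strain, the sex, the number of animals and any pooling are not stated by the labels. The study was done, per the labels, to help understand how genes direct the building of the cerebellum.

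Each value is read as a percent of the probe's own highest age. Ages of 1 probe can thus be compared, and levels of different probes cannot. Over the whole table the median value was 84.5% at E18, 82.8% at P7 and 42.0% at P56. The words rose and fell are used where the values of 2 ages stood 2-fold or more apart. The values read as percent also limit what each experiment can have shown. If each of the 2 experiments was scaled to 100% at its own highest age, a mean of 100% means that both experiments were highest at that age, and a highest mean below 100% means that they were highest at different ages. A mean near either end of the scale leaves each experiment a narrow range, and a mean near the middle leaves it a wide one. Both experiments were highest at the same age for 4 member probes (Nefm, Nefh, Tuba3b and Tubb4a) and at different ages for the other 6. In whole tissue, fewer cells of a type and less RNA per cell cannot be told apart.

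Neurons carry 3 kinds of cytoskeletal filament. Neurofilaments are intermediate filaments that fill axons, and in rodents the heavy subunit is known to appear later than the lighter ones. Microtubules are built from alpha- and beta-tubulin, each encoded by several genes whose proteins differ mostly in their tails, and gamma-tubulin nucleates them. Actin filaments drive the growth cone and the shape of dendritic spines. During the first postnatal weeks granule cells of the mouse cerebellum divide, migrate inward and extend their axons, while Purkinje cells build their dendrites and myelin forms.

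Comparing P56 with E18, Nefh, Tuba4a and Tubb4a rose, Nefm, Tuba3b, Tubb5, Actb and both Mapre1 probes fell, and Tubg2 stood within 2-fold. That is 3 of 10 member probes higher, where 22.6% of all probes were 2-fold or more higher, and 6 of 10 lower, where 52.5% of all probes were. Both shares lie near those of the table, and nothing is read from them since the genes were chosen from this contrast. By the limits on each experiment, both experiments must have been higher at P56 for Nefh and Tuba4a, 2 of 10 probes, against 18.7% of all probes. Both must have been lower for Nefm, Tuba3b, Tubb5 and the first Mapre1 probe, 4 of 10, against 43.0%. The scale between columns matters for the falls. The median probe differed by -1.07 (log2) between P56 and E18, and with each column divided by its median, 4 member probes were higher (Nefh, Tuba4a, Tubb4a and Tubg2) and 0 were lower, where 3 and 6 were before. Over the whole table that scaling turned 203 rises and 471 falls into 272 and 147, and quantile normalization into 246 and 206.

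**Figure D1:**
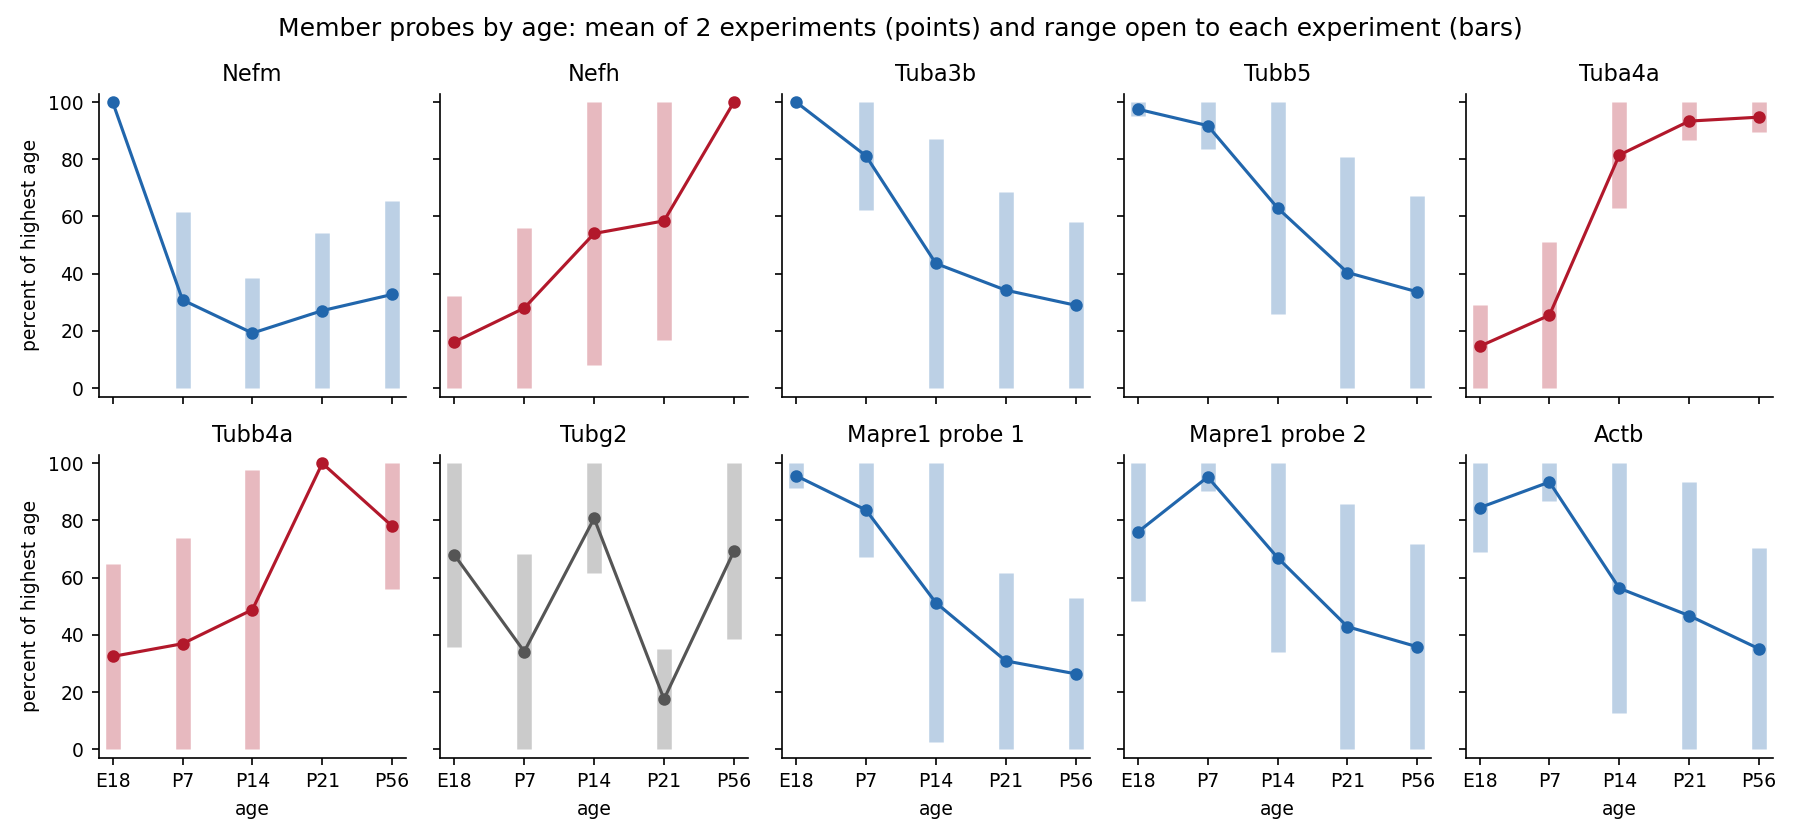
Percent of the highest age (vertical axis) at 5 ages (horizontal axis) for the 10 member probes. Points are the deposited means of 2 experiments, and pale bars span the values open to each experiment if both were scaled to 100% at their own highest age. Red marks probes 2-fold or more higher at P56 than at E18, blue those lower and grey those within 2-fold. Nefm is at its highest at E18 and Nefh at P56, and Tubg2 has its lowest value, 17.5%, at P21.

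**Figure D2:**
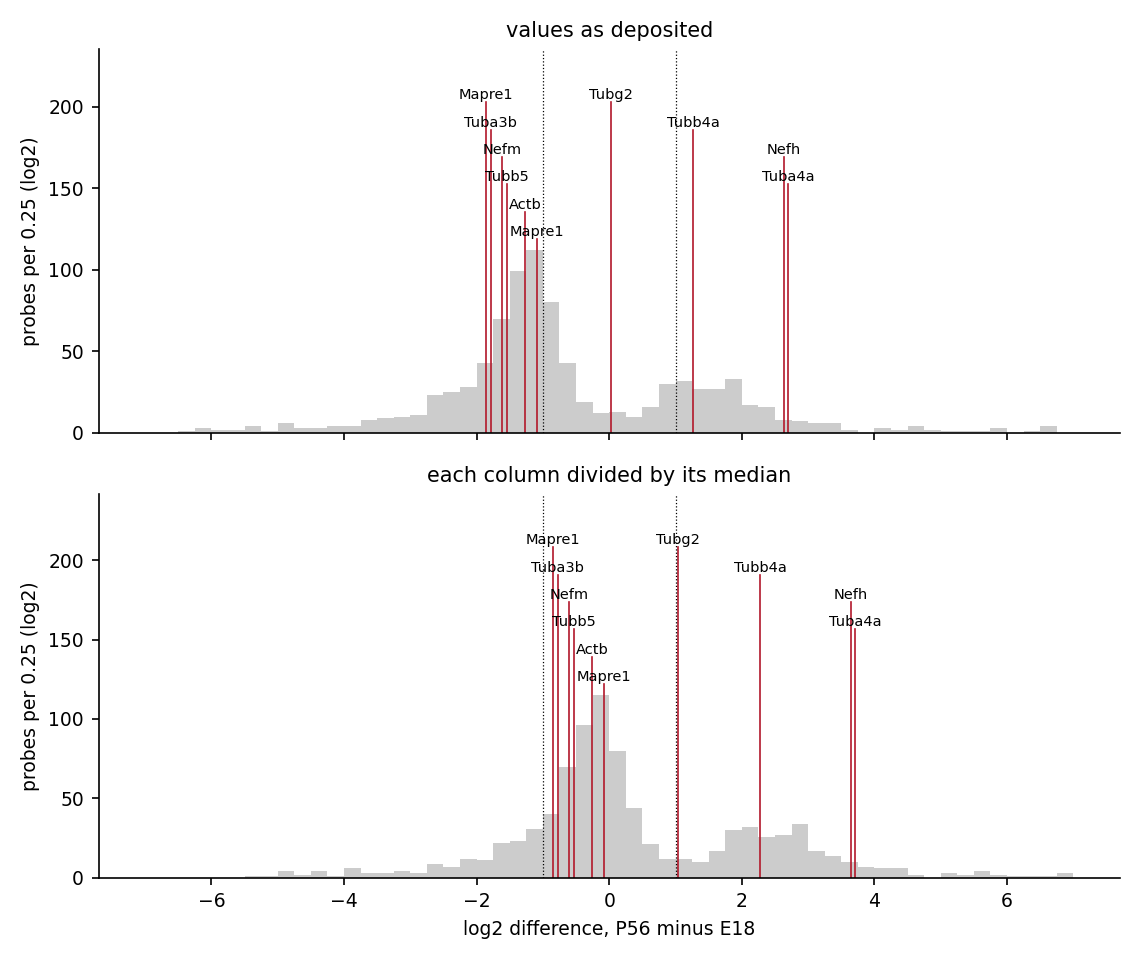
Number of probes (vertical axis) per 0.25 of log2 difference, P56 minus E18 (horizontal axis), over all 897 probes in grey, with the 10 member probes as red lines and 2-fold as dotted lines. With values as deposited, 6 member probes lie left of the lower dotted line, and with each column divided by its median 0 do, while Nefh, Tuba4a and Tubb4a lie right of the upper line in both panels.

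The neurofilament genes moved in opposite directions and at different times. Nefm, which encodes the medium subunit, was at 100% at E18, 30.8% at P7, 19.2% at P14, 27.1% at P21 and 32.7% at P56. Its level was already low at P7, was lowest at P14 and, as deposited, did not come back to a level within 2-fold of E18 at any later age. Nefm fell 3.24-fold between E18 and P7, when 2.79% of all probes fell and 5.80% rose, and it was the 1 member probe of 10 past 2-fold in that step. Both experiments were highest at E18, and the P7 mean allows at most 61.6% in either, so the fall was at least 1.62-fold in each experiment. By P14 it was at least 2.60-fold in each. With each column divided by its median the first step was 3.18-fold and with quantile normalization 4.16-fold. As deposited, its means from P7 on stayed within 2-fold of each other, P56 differed from P7 by 0.087 (log2) and P56 differed from E18 by -1.61. The later course depends on the scale between columns. With each column divided by its median, Nefm was 2.09-fold higher at P56 than at P7, with a step of 1.85-fold between P14 and P21, and P56 differed from E18 by -0.60 (log2), within 2-fold. With quantile normalization it was 2.07-fold higher at P56 than at P7 and 2.37-fold higher at P21 than at P14, and P56 differed from E18 by -1.01 (log2).

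Nefh, which encodes the heavy subunit, was at 16.1% at E18, 28.0% at P7, 54.1% at P14, 58.5% at P21 and 100% at P56. It was higher at each age than at the one before and reached its highest value only in the adult. No single step passed 2-fold as deposited: the largest, P14 against P7, was 1.93-fold, and it was 2.88-fold with each column divided by its median and 3.01-fold with quantile normalization. Nefh rose 6.20-fold between E18 and P56, and by at least 3.10-fold in each experiment, since both were at 100% at P56 and at most 32.2% at E18. 48 of the 897 probes had a larger P56 over E18 ratio. The means at P14 and P21 lie near the middle of the scale, and each experiment could have stood anywhere from 8.10% to 100% at P14 and from 16.9% to 100% at P21. The order of those ages within one experiment is therefore not settled by the means.

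Set against each other within each age, the ratio of Nefh to Nefm had grown 5.63-fold by P7, 17.4-fold by P14, 13.4-fold by P21 and 19.0-fold by P56. Most of that growth had thus come by P14. A ratio within a column does not move when the column is divided by a constant. It shows unequal change, and not which of the pair moved.

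Upstream stretches are shown for the alpha- and beta-tubulin genes, a falling and a rising pair as deposited, and for Mapre1, which also fell. They are the bases just before an annotated transcript start, from RefSeq on build GRCm38.p6, written 5′ to 3′ on the strand of the gene. Tuba3b lies at chr6:145615713-145615962 on the plus strand, Tubb5 at chr17:35838302-35838551 on the minus strand and Mapre1 at chr2:153741037-153741286 on the plus strand. Tuba4a lies at chr1:75219295-75219544 and Tubb4a at chr17:57087601-57087850, both on the minus strand. Capitals mark the letters CCAAT on either strand, the core of the box that the factor NF-Y is known to bind.
Tuba3b: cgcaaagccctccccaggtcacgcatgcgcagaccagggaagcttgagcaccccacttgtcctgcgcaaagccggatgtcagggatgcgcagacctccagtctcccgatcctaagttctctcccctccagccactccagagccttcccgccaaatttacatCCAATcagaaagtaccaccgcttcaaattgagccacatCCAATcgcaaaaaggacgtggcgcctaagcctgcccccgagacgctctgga
Tubb5: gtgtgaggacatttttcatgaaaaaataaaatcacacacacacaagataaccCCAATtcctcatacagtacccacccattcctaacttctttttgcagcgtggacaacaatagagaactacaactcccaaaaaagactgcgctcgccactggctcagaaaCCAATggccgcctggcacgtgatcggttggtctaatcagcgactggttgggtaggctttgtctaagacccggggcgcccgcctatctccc
Mapre1: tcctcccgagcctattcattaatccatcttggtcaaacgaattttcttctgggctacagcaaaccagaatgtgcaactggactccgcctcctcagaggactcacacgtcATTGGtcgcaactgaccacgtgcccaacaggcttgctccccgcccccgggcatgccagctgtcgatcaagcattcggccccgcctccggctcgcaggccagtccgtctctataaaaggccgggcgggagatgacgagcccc
Tuba4a: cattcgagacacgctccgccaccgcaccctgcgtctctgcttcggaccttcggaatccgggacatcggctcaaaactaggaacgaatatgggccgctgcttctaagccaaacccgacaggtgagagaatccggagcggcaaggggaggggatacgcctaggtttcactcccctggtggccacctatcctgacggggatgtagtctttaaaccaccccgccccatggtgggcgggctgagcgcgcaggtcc
Tubb4a: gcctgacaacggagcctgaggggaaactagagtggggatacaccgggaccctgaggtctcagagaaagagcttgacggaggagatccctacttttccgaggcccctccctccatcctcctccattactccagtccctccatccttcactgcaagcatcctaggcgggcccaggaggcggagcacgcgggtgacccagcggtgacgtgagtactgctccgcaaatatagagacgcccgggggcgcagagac
Of the 9 genes, 6 had an entry in the promoter table, the 5 above and Tubg2; Nefm, Nefh and Actb did not. CCAAT stood in 3 of the 6 windows of 250 bases, those of Tuba3b (2 matches), Tubb5 (2) and Mapre1 (1), and in 33.8% of 32817 windows of that length. The letters GGGCGG, the core of the GC box, stood in 2 of the 6, Mapre1 and Tuba4a, and in 32.7% of all windows. TATAA stood in that of Mapre1 alone and in 22.8% of all, and CACGTG in those of Mapre1 and Tubb5 and in 6.02% of all. Both strands were searched for each motif, and no match in these windows overlapped a match of another motif. The genes shown were picked by their profiles, and the motifs were chosen after the sequences were seen. A match is thus a description of letters, and draws no link to the profiles.

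As deposited, both genes of the first tubulin pair fell between E18 and P56, with their largest steps in different intervals. Tuba3b, an alpha-tubulin gene described in the mouse mainly from testis, was at 100% at E18, 81.2% at P7, 43.6% at P14, 34.2% at P21 and 29.0% at P56. Its value was lower at each age than at the one before. It fell 3.45-fold between E18 and P56, by at least 1.73-fold in each experiment, and passed below 50% of its highest value between P7 and P14, as did 28.1% of all probes. Tubb5, the class I beta-tubulin gene that most cells express, was at 97.5% at E18, 91.8% at P7, 63.0% at P14, 40.4% at P21 and 33.6% at P56. It kept most of its level through P7 and P14. It fell 2.90-fold between E18 and P56, by at least 1.41-fold in each experiment, and passed below 50% of its highest value between P14 and P21, as did 21.9% of all probes. No step of either gene passed 2-fold; the largest were 1.86-fold for Tuba3b, P14 against P7, and 1.56-fold for Tubb5, P21 against P14. Relative to the median of each column the P56 against E18 differences were -0.78 for Tuba3b and -0.53 for Tubb5 (log2), so both genes fell by somewhat more than the median probe but not by 2-fold more. With quantile normalization the differences were -1.30 for Tuba3b and -0.79 for Tubb5, so only Tuba3b passed 2-fold there.

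As deposited, the other alpha- and beta-tubulin genes rose in successive intervals. Tuba4a is an alpha-tubulin gene whose protein lacks the final tyrosine most alpha-tubulins are made with. Its value was 14.6% at E18, 25.5% at P7, 81.5% at P14, 93.4% at P21 and 94.7% at P56. It was low at both early ages and near its plateau from P14 on. The step between P7 and P14 was 3.20-fold, with 14.4% of all probes rising and 24.7% falling in it, and both experiments must have taken part, by at least 1.24-fold each. Between E18 and P56 Tuba4a rose 6.50-fold, by at least 3.07-fold in each experiment, and 43 of 897 probes had a larger ratio. Its 2 experiments were highest at different ages among P14, P21 and P56, and the means of P21 and P56 differ by 0.021 (log2).

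Tubb4a, the class IVa beta-tubulin gene, expressed in brain by neurons and strongly by oligodendrocytes, was at 32.5% at E18, 36.9% at P7, 48.8% at P14, 100% at P21 and 78.0% at P56. The 3 earlier ages lie below 50% of the P21 value and the adult lies above it. Tubb4a rose 2.05-fold between P14 and P21, a step in which 3.23% of all probes rose and 13.2% fell, and both experiments were highest at P21. That step was 2.69-fold with each column divided by its median and 1.83-fold with quantile normalization, under the 2-fold rule. With quantile normalization the step between P7 and P14 was the larger one, at 1.91-fold. At a level of 40% of its highest value, Tubb4a crossed between P7 and P14. Tubb4a rose 3.08-fold between E18 and P21 and 2.40-fold between E18 and P56. The rise to P21 was at least 1.54-fold in each experiment, while at P56 each experiment could have stood anywhere from 56.0% to 100% and at E18 anywhere up to 64.9%, so that the means do not force both experiments upward between E18 and P56.

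The ratio of Tuba4a to Tuba3b had grown 2.15-fold by P7, 12.8-fold by P14, 18.7-fold by P21 and 22.4-fold by P56. Most of it thus came between P7 and P14, a step of 5.96-fold. The ratio of Tubb4a to Tubb5 had grown 1.21-fold by P7, 2.33-fold by P14, 7.44-fold by P21 and 6.97-fold by P56. Its largest step, 3.19-fold, lay between P14 and P21, and it stood within 1.07-fold of that level in the adult. As deposited, the alpha-tubulin ratio thus took its largest step 1 interval before the beta-tubulin ratio. Single steps of the ratios were not computed under quantile normalization. There Tubb4a was 1.91-fold higher at P14 than at P7 and 1.83-fold higher at P21 than at P14. Tubb5 was 1.08-fold and 1.16-fold lower in the same steps, so the 2 intervals lie close on that scale. Under quantile normalization the 2 ratios had grown by 3.93 and 2.29 (log2) at P56, in place of 4.49 and 2.80. Tubulin genes are near-identical over much of their coding length, the probe sequences are not used here, and whether each probe tells its own isoform from the others was not tested.

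**Figure D3:**
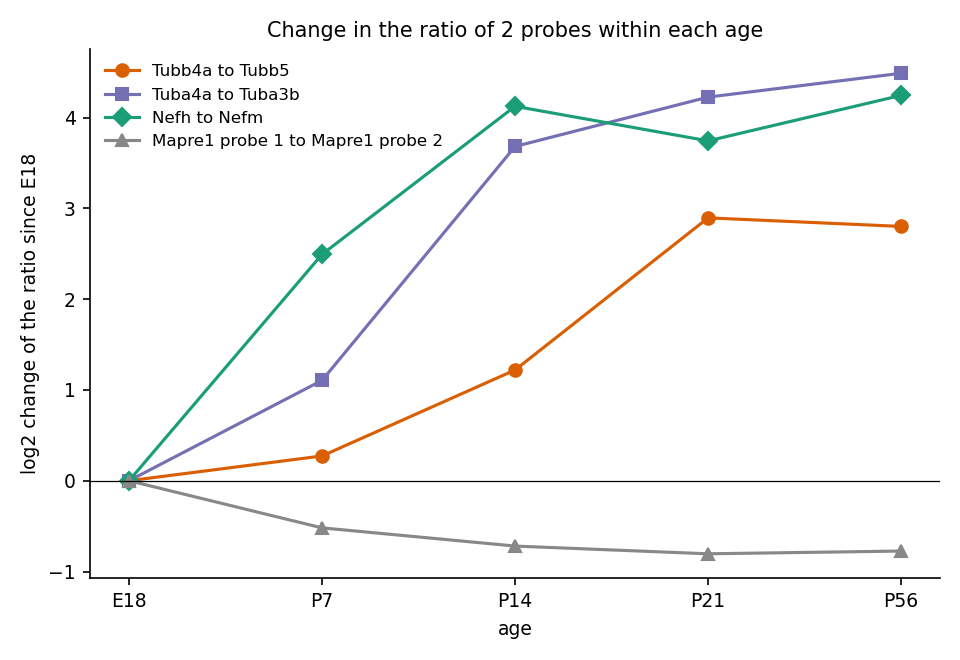
Log2 change since E18 (vertical axis) in the ratio of 2 probes within each age (horizontal axis), for the alpha-tubulin, beta-tubulin and neurofilament pairs and, in grey, the 2 probes of Mapre1. The neurofilament and alpha-tubulin ratios reach most of their change by P14 and the beta-tubulin ratio by P21, while the ratio of the 2 Mapre1 probes is at its lowest, -0.80, at P21.

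Tubg2, a gamma-tubulin gene, followed none of these courses. It was at 68.0% at E18, 34.2% at P7, 80.7% at P14, 17.5% at P21 and 69.3% at P56. It was high at E18, P14 and P56 and low at P7 and P21, and P56 differed from E18 by 0.027 (log2). Tubg2 rose 2.36-fold between P7 and P14, fell 4.61-fold between P14 and P21 and rose 3.95-fold between P21 and P56. It was the 1 member probe past 2-fold in the last step, where 2.68% of all probes rose and 2.23% fell. The low P21 value is common to both experiments, since each had at most 35.1% at P21, at least 61.5% at P14 and at least 38.5% at P56. The low P7 value is not settled in the same way, because each experiment could have stood anywhere up to 68.3% there.

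Of the 897 probes, 37 changed direction at each of P7, P14 and P21, 4.12% of the table. This count takes probes that first fell, as Tubg2 did, and probes that first rose. Tubg2 was the 1 probe of these whose 4 steps were all at least 1.99-fold, which is its own smallest step. The nearest profile of another gene lay 18.3 percentage points away, averaged over the 5 ages, against a median of 2.78 points over the 787 named probes, and no named probe lay farther from its nearest neighbour. The steps between P7 and P56 passed 2-fold with each column divided by its median too, and with quantile normalization. A floor at the 25th percentile of all values, 35.8%, took away the last step, since the P21 value lies under it. Dividing columns by their medians put P56 at 1.04 (log2) above E18.

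Mapre1 encodes EB1, a protein that tracks the growing ends of microtubules. Its first probe was at 95.6% at E18, 83.7% at P7, 51.2% at P14, 30.9% at P21 and 26.4% at P56. Its second probe was at 75.9% at E18, 95.2% at P7, 67.0% at P14, 42.9% at P21 and 35.8% at P56. The first was highest at E18 and the second at P7, and from P7 on both were lower at each age than at the one before. Between E18 and P56 the first fell 3.63-fold, by at least 1.73-fold in each experiment, and the second fell 2.12-fold, with no direction forced on both experiments. Both passed below 50% of their highest value between P14 and P21, and their steps there were 1.66-fold and 1.56-fold.

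The probes disagree mainly at the start. Their log2 differences, -1.86 and -1.08, are 0.77 apart, against a median of 0.38 and a range of 0.14 to 1.58 over the 14 genes with 2 probes, of which 3 have a larger gap. Their ratio had changed by -0.52 at P7 and by -0.77 at P56 (log2), relative to E18. With P7 as the starting age the first probe differed by -1.67 and the second by -1.41 at P56. With each column divided by its median the P56 against E18 values became -0.85 and -0.074, so that the second probe moved with the median of the table.

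Actb, the gene of beta-actin, a cytoplasmic actin of nearly all cells, was at 84.5% at E18, 93.4% at P7, 56.3% at P14, 46.7% at P21 and 35.1% at P56. It was highest at P7 and lower at each later age than at the one before. Between E18 and P56 it fell 2.40-fold, and between P7 and P56 2.66-fold; both experiments must have been lower at P56 than at P7, by at least 1.24-fold, while the E18 value forces no direction. Relative to the column medians Actb differed by -0.26 (log2) between P56 and E18 and by between -0.40 and 0.18 in single steps. It thus stayed close to the median probe of the table at every age on that scale.

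The 5 falling probes other than Nefm resembled one another, and lay between 4.08 and 15.4 percentage points apart. Averaged over the 5 ages, Tuba3b and the first Mapre1 probe lay 4.08 percentage points apart, Actb and the second Mapre1 probe 5.11 points, and Tubb5 and Actb 5.84 points. Nefm lay farther off, 17.1 points from Tuba3b and 31.0 points from the second Mapre1 probe. Among the rising genes, Nefh and Tuba4a lay 14.3 points apart, Tuba4a and Tubb4a 17.1 points and Nefh and Tubb4a 18.8 points.

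Profiles of other genes closest to each member were taken by the same measure, 3 for each probe. Nefm lay nearest to Ebf2, a transcription factor gene, at 5.02 points, then to Pdpn and to Pbx3, another transcription factor gene, at 8.24 and 8.68 points. Nefh lay nearest to AW112037 at 2.74 points, to Pacsin1, a gene of synaptic endocytosis, at 3.50 points and to Kcnma1, a calcium-activated potassium channel gene, at 3.67 points. Tuba4a lay nearest to Dock9, Tlcd4 and Htra1, at 3.25, 3.72 and 3.81 points. These neighbours share the low values at E18 and P7 with the rising members. Tubb4a lay nearest to Ache, the acetylcholinesterase gene, Tyro3, a receptor kinase gene, and Sh3gl2, an endophilin gene of synaptic endocytosis, at 6.04, 6.36 and 6.64 points, all of them at 98.3% or more at P21.

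Tuba3b lay nearest to the collagen gene Col1a1 at 1.28 points, then to Smad2 and Ptn at 1.79 and 1.95 points. Tubb5 lay nearest to Fam3c, Polr2i and Spef1 at 2.49, 2.58 and 2.63 points. The first Mapre1 probe lay nearest to the collagen gene Col4a2 at 1.32 points, then to Erh and Nras at 2.80 and 2.84 points, and the second to Nkain1, Top2b and Zzz3 at 3.24, 3.66 and 3.68 points. Falling members thus had close neighbours among genes of quite different kinds. Actb lay nearest to Srsf3, a splicing factor gene, Ptma, and Klc1, a kinesin light chain gene, at 2.25, 2.45 and 2.59 points. For Tubg2 the nearest were Pdcd4, Cry1 and Myt1l, at 18.3, 18.3 and 18.7 points, and none of them is a close match.

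Other cytoskeletal genes of the table, from lists chosen with earlier results of these data known, were measured for 19 genes. Of these, 3 were higher at P56 than at E18 (Ank1, Gfap and Gsn), 13 were lower and 3 stood within 2-fold, with a median of -1.29 (log2), against -1.07 over all probes. The share of rises and falls over all probes is 22.6% and 52.5%. With each column divided by its median 4 of the 19 were higher, Map4 being added, and 5 lower (Kifc5b, Actl6a, Marcks, Marcksl1 and Ezr), and with quantile normalization 3 were higher and 6 lower, the same 5 and Fscn1. The folds of this list that follow are of values as deposited. Of the list of other tubulins and their cofactors 1 of 23 genes was measured: Tbca, a tubulin folding cofactor gene, fell 2.62-fold and stood at 38.2% at P56, against 100% at E18. Of 2 measured microtubule-associated genes, Stmn1, a gene of a protein that holds tubulin dimers, fell 2.18-fold, and Map4 stood at 80.0% at P56, against 53.4% at E18. Map4 was highest at P14, at 92.0%.

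All 5 measured microtubule motor genes fell as deposited, where 52.5% of all probes did, and 1 of 5, Kifc5b, fell under either scaling. With each column divided by its median Kifc5b differed by -2.70 (log2) between P56 and E18, and the other 4 by between -0.34 and -0.19. Kifc5b, a kinesin gene of the mitotic spindle, changed most, to 5.16% at P56, against 67.4% at E18 (13.1-fold), and already stood at 7.01% at P14. The other 4 fell between 2.30-fold (Kif20a) and 2.55-fold (Dync1i2, a dynein chain gene), with Klc1 at 2.44-fold and Kif2a at 2.36-fold. Both other measured genes of the actin list fell: Actl6a, whose actin-related protein is known from chromatin remodelling complexes, 4.50-fold, and Actc1, the cardiac actin gene, 2.79-fold. Gfap, the astrocyte intermediate filament gene and the 1 measured gene of that list besides the neurofilaments, was at 8.17% at E18, 100% at P7 and 44.2% at P56.

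Of 8 measured actin-binding genes 2 rose and 4 fell between E18 and P56. Ank1, which encodes an ankyrin that ties membrane proteins to spectrin, rose 6.27-fold, and Gsn, the gelsolin gene, 3.89-fold. Gsn was highest at P14, at 92.9%, and stood at 75.4% at P21 and 40.1% at P56, against 10.3% at E18. Marcks and Marcksl1, genes of membrane-bound actin-binding proteins, fell 4.90-fold and 4.78-fold. Both stood at 65.3% or more until P14. Ezr, the ezrin gene, fell 4.09-fold and Fscn1, the gene of the filament-bundling protein fascin, 3.68-fold, while Capza1 and Cfl2 stood within 2-fold.

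**Figure D4:**
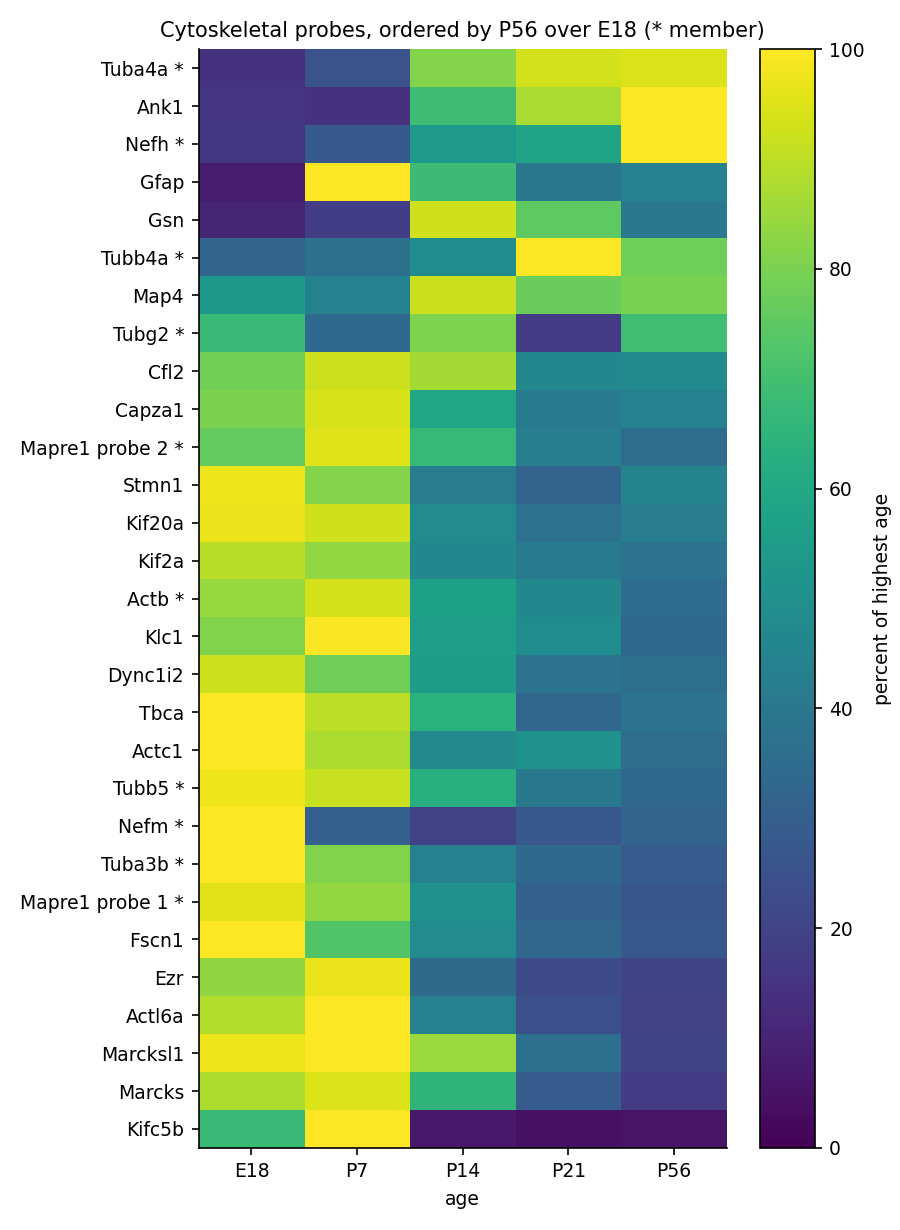
Percent of the highest age (colour) at 5 ages (columns) for the 10 member probes, marked by a star, and 19 other cytoskeletal genes, ordered by P56 over E18 from the highest ratio at the top. Tuba4a and Ank1 are brightest from P14 or P21 on, Tubb4a at P21 and P56, and Nefh at P56. Most other rows are brightest at E18 and P7.

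Markers of the cells that the tissue holds changed over the same ages. Values under 1% were set to 1%, and some markers stood at 1%. These were Gabra6, Mag and Mog at E18, Gabrd at E18 and P7, Ccna2 and Tk1 at P21, and Igfbpl1 at P21 and P56. All 12 measured markers of dividing cells were lower at P56 than at E18, with a median value of 84.2% at E18, 100% at P7, 11.0% at P14, 6.49% at P21 and 7.06% at P56. All 6 of immature neurons were lower too (5 of 6, without Stmn1, under either scaling), with a median of 94.0% at E18, 87.6% at P7, 23.5% at P14, 4.38% at P21 and 3.03% at P56. At P56 the 6 falling member probes had deposited values of 26.4% to 35.8%, and Stmn1 of the second list stood at 44.6%. Each value is a percent of the probe's own highest age, so levels are not ranked between members and markers.

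On the rising side, 5 of 6 markers of mature granule cells were higher, with a median of 7.01% at E18, 8.21% at P7, 80.8% at P14, 94.2% at P21 and 90.2% at P56. All 6 of Purkinje cells were higher, with a median of 15.4% at E18, 24.9% at P7, 83.2% at P14, 84.4% at P21 and 94.3% at P56. The step of Tuba4a falls in the same interval as those of both lists. All 5 of oligodendrocytes and myelin were higher, with a median of 1.08% at E18, 14.4% at P7, 77.2% at P14, 87.9% at P21 and 54.7% at P56. Of these 5, 1 shared the order of Tubb4a over the last 3 ages, Mobp at 48.7% at P14, 100% at P21 and 60.4% at P56, chosen after its values were seen. Another 3 were highest at P21 but lower at P56 than at P14 (Mag, Mog and Cldn11), and Car2 was highest at P56. The order of Tubb4a over the last 3 ages is not particular to this list. Markers of other lists had it too, among them Gabrd of granule cells, Pvalb of Purkinje cells and Atp1b2 of astrocytes. In Pvalb the 3 ages lay close, at 95.6%, 100% and 96.6%. Atp2a3 of Purkinje cells had the order in the mean of its 2 probes, of which 1 was highest at P21 and the other at P56. All 5 of astrocytes were higher. Of 8 of meninges and vessels 7 were lower and 0 higher, against 4 lower and 1 higher with each column divided by its median. With quantile normalization 7 of these 8 were lower and 1 higher. Of 2 microglial markers 1 was higher. The part of these shifts between cell types in the member profiles was not tested.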

How the data were processed

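Total RNA of mouse cerebellum was measured on arrays, with 1 column per age. Per the labels, the authors deposited the mean signal of 2 array experiments per age; background correction, normalization between arrays and the choice of probes are not stated there. The deposited values were taken to be percent of a probe's highest age, scaled per experiment: they lie between 0.01 and 100, 420 probes stand at 100 at 1 age and 0 at 2 ages, and all 477 probes with a highest value below 100 have at least 50 at a second age, as this scaling requires. The authors do not state this scaling. The number of arrays limits the precision.

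Probes were named from the platform annotation, which can be old; the member symbols matched RefSeq by gene identifier. Values under 1% were set to 1% (20 values, 0 of them in members) and compared as log2. A single column per age allows no test; a difference of 2-fold or more counts as a change. From a mean of 2 experiments that lie between 0 and 100, the lowest and highest value of each was derived, a step added after the values were seen. Likeness of profiles is the mean absolute difference in percentage points over 5 ages. Alternatives were other floors, a pseudocount, 2 scalings between columns, 3-fold and 1.5-fold thresholds and other ages. All member genes, the 3 nearest genes of each probe and up to 6 genes of each cytoskeletal list are named; Capza1 and Cfl2 were chosen with their values in view. The members and lists were chosen with earlier results of these data known, and the promoter motifs after the sequences were seen. Promoter windows leave out the 50 bases after the start. The calculation was tested on simulated data. Python 3.11.15, numpy 2.4.6, pandas 2.3.3 and matplotlib 3.10.9 were used.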

Additional observations from a re-analysis of the deposited data

How the results depend on the processing

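No paired analysis was possible because each age has 1 column. The 3 rises between E18 and P56 (Nefh, Tuba4a and Tubb4a; the first 2 at 3-fold) stayed past 2-fold under both scalings, every floor, the pseudocount and the other ages tried. The count of falls depends on the scale between columns. As deposited 6 of 10 member probes fell, against 52.5% of all probes, and 3 at 3-fold, against 26.1%. With each column divided by its median 0 fell, against 16.4% of all probes. With quantile normalization 3 fell (Nefm, Tuba3b and the first Mapre1 probe), against 23.0%. The median probe of the table is lower at P56 than at E18, and dividing by the medians takes that shift out by construction. With P7 in place of E18 the difference of Nefm reversed to 0.087 (log2), since its fall lies between E18 and P7; added after the data were seen, that value was 1.07 with columns divided by their medians and 1.05 with quantile normalization. The falls among the 19 other cytoskeletal genes numbered 5 on the scale of column medians and 6 after quantile normalization, in place of 13. At 1.5-fold, 4 of 10 member probes changed between E18 and P7 in place of 1, where 23.4% of all probes changed. Between P7 and P14 7 changed in place of 2, against 73.6% of all probes. Between P14 and P21 it was 5 in place of 2, against 41.7%, and between P21 and P56 2 in place of 1, against 17.8%. At 3-fold, 1 changed between P7 and P14 and 1 between P14 and P21, against 17.5% and 4.68% of all probes. With a floor at the 25th percentile 0 changed between P21 and P56, against 1.23% of all probes. The growth of the 3 isoform ratios stayed past 2-fold under all 8 alternatives run. Of these, dividing columns by their medians and leaving out the floor could not change the ratios, because no member value lay under 1%. The age at which a probe passed 50% of its highest value was another interval for 6 of 10 probes at 40% and for 2 of 10 at 60%. Signal over background cannot be judged from percent values.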

Other observations

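The cytoskeletal genes sit together in the deposited table. Of the 10 member probes, 8 lie within 18 neighbouring rows, and 15 of these 18 rows name a member or a gene of the cytoskeletal lists, out of 29 such rows in the whole table. The remaining 2 probes, those of Tubg2 and the second Mapre1 probe, lie apart from this block.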
